A study of Mus musculus with 2 samples.

Results

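The clustered protocadherin genes were taken as all protein-coding genes whose symbols start with Pcdha, Pcdhb or Pcdhg, 57 of the 21938 protein-coding genes of the annotation. They comprise 14 genes of the alpha cluster, 22 of the beta cluster and 21 of the gamma cluster. All 57 lie on the plus strand of chromosome 18. Members were chosen by symbol, and no peak value chose them, but the group itself was singled out with earlier results of these data known, so its values are given as descriptions. DNase-seq, which maps accessible DNA by its sensitivity to DNase I, was done on cortex from the left cerebral hemisphere (label: left cerebral cortex) of 2 females of the strain B6CASTF1/J, aged 14 days. B6CASTF1/J is the first-generation cross of C57BL/6J and CAST/EiJ, and neither animal carried a treatment according to the labels. Each animal gave 1 library, named replicate 1 and replicate 2 as in the labels, which give them separate animal numbers but 1 donor record. Both libraries form 1 group, so there is no comparison of conditions and no test, and each value is given for both libraries.

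Clustered protocadherins are adhesion proteins of the neuronal surface that bind the same isoform on the facing membrane, which lets the branches of a neuron recognise and avoid each other. Each gene of the alpha and gamma clusters has its own promoter and variable first exon, spliced to constant exons shared by the cluster. Genes of the beta cluster have a single coding exon and no shared constant exons. Single neurons choose a few of the alternate isoforms at random, with DNA methylation, CTCF and cohesin taking part in the choice, whereas the C-type isoforms at the end of the alpha and gamma clusters are used more uniformly. Distal enhancers lie downstream of the alpha cluster and downstream of the gamma cluster.

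Few of the member promoters were accessible in both libraries. A promoter is here the 1 kb on either side of any annotated transcription start site (TSS), and it counts as accessible where a peak overlaps it by at least 1 bp. In both libraries 13 of 57 member promoters (22.8%) held a peak, against 62.7% of all protein-coding genes. The numbers by cluster were 2 of 14 in alpha, 6 of 22 in beta and 5 of 21 in gamma. Replicate 1 had a peak at 15 member promoters, against 63.6% of all protein-coding genes, and replicate 2 at 27, against 67.8%. A peak in replicate 1 alone was found at 2 members, a peak in replicate 2 alone at 14, and 28 members had no peak in either. In a piece of tissue, accessibility in few cells and weak accessibility in many cells cannot be told apart.

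**Figure D1:**
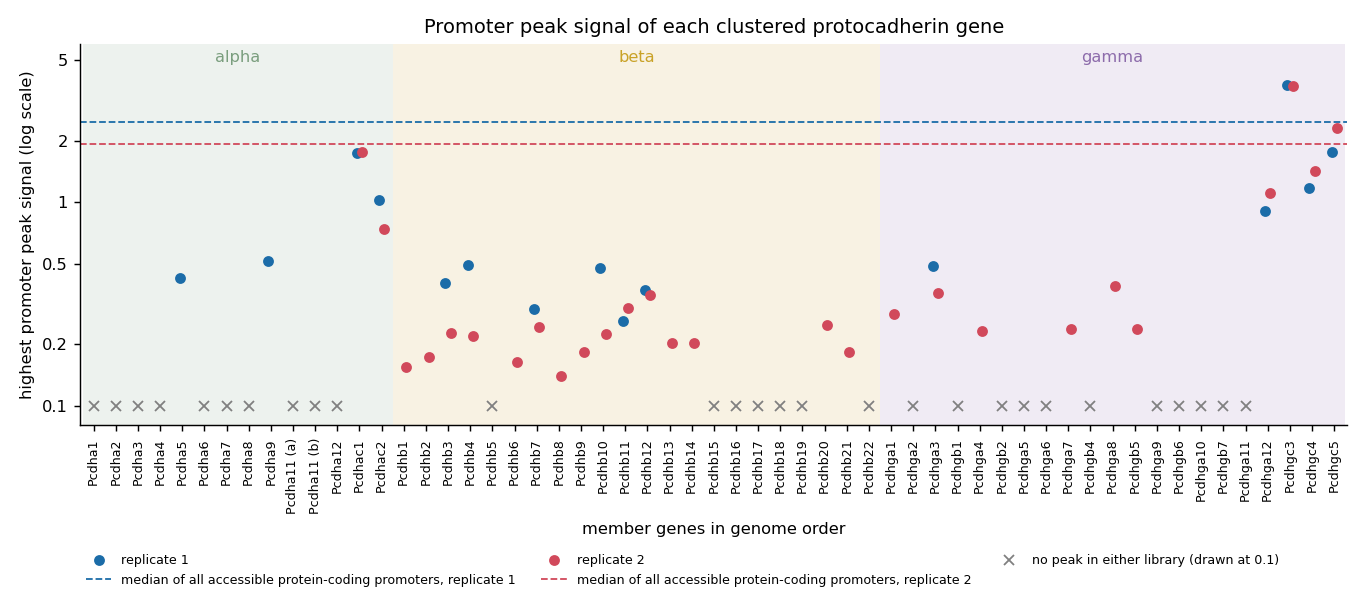
Highest promoter peak signal (log scale, no stated unit) of the 57 members in genome order, with 1 point per library, crosses for members with no peak in either library, and dashed lines at the median of all accessible protein-coding promoters of each library. The 5 C-type members are called in both libraries, and only Pcdhgc3 lies above the dashed line of its library in both.

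The accessible members fell unevenly between the C-type and the alternate isoforms. All 5 C-type members had a peak in both libraries, and the 5 were also called in the authors' stricter peak lists of both libraries. Of the 12 alternate alpha members none had a peak in both libraries. Of the 18 alternate gamma members 2 had one. The peak signal used here is the value the authors deposited for each peak, for which no unit is given. It is compared between genes only within a library.

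Pcdhgc3, the first of the gamma C-type genes, had the highest promoter signal of all members, 3.76 in replicate 1 and 3.72 in replicate 2. This placed it at percentile 69.6 and 76.6 of all accessible protein-coding promoters. Its window held 11 and 8 footprints, which are short stretches the authors called as protected from DNase I and which are usually read as places of bound protein. Pcdhgc5, the last gene of the gamma cluster, measured 1.76 and 2.32. Pcdhgc4, the C-type gene whose loss is known to reduce the survival of interneurons, measured 1.18 and 1.43. In the alpha cluster Pcdhac1 measured 1.74 and 1.77. Pcdhac2, the isoform known for its role in the axons of serotonergic neurons, measured 1.02 and 0.737. The medians of all accessible protein-coding promoters were 2.48 and 1.94, so Pcdhac1, Pcdhac2 and Pcdhgc4 lay below the median in both libraries, and Pcdhgc5 lay below it in replicate 1 and above it in replicate 2. Footprints were found at all 5 C-type promoters in both libraries, 12 and 15 in the alpha pair and 20 and 18 in the gamma trio. These counts were not set beside those of other accessible promoters, so they do not mark the C-type members out.

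Among the alternate alpha members, which carry the adhesion domains in their variable exons, only Pcdha9 (0.516) and Pcdha5 (0.424) had a peak, both in replicate 1 alone. Each of these peaks held 1 footprint. Pcdha1, Pcdha2 and Pcdha3, the first members in genome order, had no peak in either library, and the same held for a further 7 alpha genes. The annotation gives the symbol Pcdha11 to a pair of genes, starting at 37005203 and 37010712, and neither had a peak.

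The beta cluster had the weakest accessible promoters. Pcdhb12 measured 0.370 in replicate 1 and 0.348 in replicate 2, Pcdhb4 measured 0.493 and 0.219, and Pcdhb10 measured 0.478 and 0.224. The other members with a peak in both libraries were Pcdhb3, Pcdhb7 and Pcdhb11. Over the cluster the signals ran from 0.262 to 0.493 in replicate 1 and from 0.139 to 0.348 in replicate 2. All of these values lay below the medians of all accessible protein-coding promoters, and most lay at or below the 5th percentiles, 0.485 and 0.329. A further 9 beta promoters (Pcdhb1, Pcdhb2, Pcdhb6, Pcdhb8, Pcdhb9, Pcdhb13, Pcdhb14, Pcdhb20 and Pcdhb21) had a peak in replicate 2 alone, with signals from 0.139 to 0.249. Pcdhb5, Pcdhb15, Pcdhb16, Pcdhb17, Pcdhb18, Pcdhb19 and Pcdhb22 had none.

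The 2 libraries differ in how many weak peaks they list. Replicate 1 has 90059 peaks with a 1st percentile of signal of 0.208, and replicate 2 has 175597 peaks with a 1st percentile of 0.124. All signals are whole multiples of 1 step in each library, 0.00771 and 0.00498, and the beta promoter peaks were worth 34 to 64 steps in replicate 1 and 28 to 70 steps in replicate 2. Sequencing depth is unknown, because the factor behind the step is not stated. With the 90059 highest peaks of each library, 6 members in all and none of the beta cluster had a peak in both. The share of all protein-coding genes under this setting is not given here, so the lower count cannot be read as particular to the members. The part of depth in the 14 members called in replicate 2 alone was not tested.

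In the gamma cluster the alternate member with the strongest promoter was Pcdhga12, the last before the C-type genes, at 0.909 in replicate 1 and 1.12 in replicate 2. Pcdhga3 measured 0.485 and 0.358. Pcdhga8 had a peak in replicate 2 alone (0.388), as did Pcdhga1, Pcdhga4, Pcdhga7 and Pcdhgb5 at 0.234 to 0.284. Pcdhga2, Pcdhgb1 and Pcdhgb2, like a further 8 gamma genes, had none in either. The gene Pcdhgb8, annotated as a polymorphic pseudogene and therefore not counted as a member, had a peak of 0.948 and 0.548 at its promoter.

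Members without a peak were also mostly without weaker evidence of cleavage. The authors deposited segments of raised DNase I cleavage, each with a q-value (false discovery rate) of at most 0.05. Of the 28 members with no peak in either library, 25 had no such segment within 1 kb of the first TSS in either. The exceptions were Pcdha8, Pcdhb19 and Pcdhga11. The same share was not taken for other protein-coding genes without a peak, so 25 of 28 does not set the members apart. None of the 28 promoter windows held a footprint. Footprints were not counted at other genes without a peak, and few could lie where little cleavage was found, so their absence adds little.

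Reads from sequence that members share may not map to 1 place. In the promoter windows the share of 31-base words found once in the reference genome had a median of 91.7% in the members with no peak and 97.3% in the members with a peak in both libraries. The 10 alpha members without a peak ranged from 73.2% to 91.5%, and Pcdhac1 and Pcdhac2 were at 100% each. In the beta cluster the order was the other way: the 7 members without a peak ranged from 92.0% to 100% and the 6 with a peak in both libraries from 80.2% to 100%. No window was below 50%, and 6 of the 28 members without a peak were fully unique. The part of read mapping in the missing peaks was not tested.

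The clusters were also set beside genes with a like ratio of observed to expected CpG, without matching GC content. The ratio of observed to expected CpG in the 500 bp on both sides of the first TSS had a median of 0.682 in alpha, 0.378 in beta and 0.594 in gamma. Among other protein-coding genes in the interquartile range of the alpha cluster 91.3% had a promoter peak in both libraries, compared with 2 of 14 alpha members. The corresponding shares were 86.7% for the range of the gamma cluster, compared with 5 of 21, and 50.2% for the range of the beta cluster, compared with 6 of 22. The member counts cover whole clusters, including members outside these ranges, so they are not matched to the shares. All 6 beta members with a peak in both libraries lay inside the beta range (0.299 to 0.433). Pcdhb8, Pcdhb14, Pcdhb15 and Pcdhb18 lay inside it without a peak in both. Pcdhac1 (0.564), Pcdhgc3 (0.797), Pcdhgc5 (0.233) and Pcdhga12 (0.318), accessible in both libraries, lay outside the ranges of their clusters. The member with the highest ratio, Pcdhga11 at 0.864, had no peak, and Pcdhgc5 at 0.233 had the second highest mean signal of all members. GC content in the same windows had a median of 45.4% in alpha, 41.3% in beta and 47.1% in gamma. It ran from 50.4% to 58.0% at the C-type members and was at most 49.95% at the other members. The part of GC content in the promoter peaks was not tested.

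**Figure D2:**
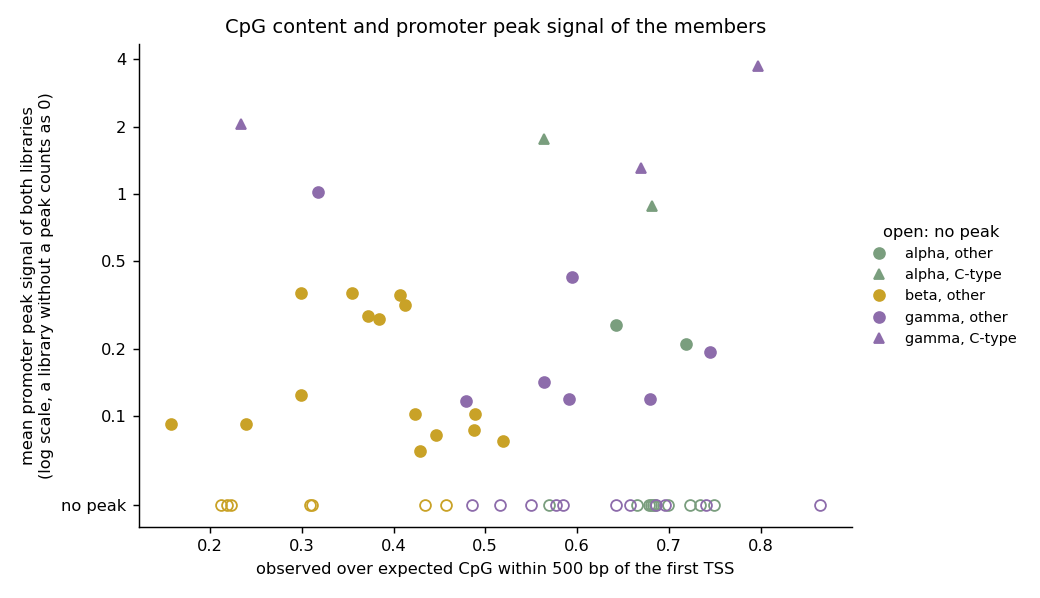
Observed over expected CpG around the first TSS of each member (x axis) against the mean promoter peak signal of both libraries (y axis, log scale, a library without a peak counted as 0), with colours for the clusters, triangles for C-type members and open symbols for no peak in either library. Most alternate alpha members sit between 0.6 and 0.75 with no peak, and the 2 highest points, Pcdhgc3 and Pcdhgc5, sit near opposite ends of the axis.

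Beta promoter peaks lay near the first TSS. Most overlapped it, while those of Pcdhb6 and Pcdhb13 in replicate 2 and of Pcdhb11 and Pcdhb12 in replicate 1 ended before it. The midpoint of the highest peak lay a median of 40 bp upstream of the first TSS in replicate 1 (-40 bp) and 30 bp upstream in replicate 2 (-30 bp), and it was upstream in 6 of 6 and 13 of 15 beta members. The medians were -23 bp over 12874 accessible protein-coding genes in replicate 1 and -28 bp over 13699 in replicate 2. These are fewer than all accessible genes, 13958 and 14863. The alternate gamma peaks of replicate 2 lay within 100 bp of the first TSS except at Pcdhga12, where the midpoints were 350 and 330 bp downstream, closer to its other annotated TSS. At Pcdhgc4 they were 324 and 271 bp downstream. Merged over both libraries, that peak has its midpoint 48 bp from another annotated TSS of Pcdhgc4. At Pcdha5 the peak of replicate 1 lay 440 bp downstream, and at Pcdha9 it lay at -113 bp.

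CTCF is the DNA-binding protein that, with cohesin, brings the enhancers to the chosen promoters. Matches to its core consensus of 12 letters, with at most 1 mismatch on either strand, were searched by name only. Within 500 bp of the first TSS 3 of 57 members had a match (Pcdha5, Pcdhb8 and Pcdhgb1), against 11.9% of all protein-coding genes. Within 1 kb the alpha cluster had a match in 10 of 14 members, against 20.6%, while beta had 1 of 22 and gamma 2 of 21. In 9 alpha members the match was on the strand of the gene and downstream of the TSS, at a distance between 462 and 587 bp with a median of 566 bp. Such a match in the 1 kb after the first TSS was found in 5.01% of all protein-coding genes. The 9 members are close paralogs with similar exons, so their matches are not independent of each other.

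None of these 9 alpha matches lay in a footprint in either library. The match of Pcdha5 lay inside its replicate 1 peak, and the other 8 lay in no peak. Pcdhac1 had a match 721 bp downstream on the opposite strand, inside a weak second peak of replicate 2. The shared peaks at member promoters, 16 in all, held no match. A match is a description of letters and not a bound site, and a missing match is not evidence that a promoter lacks a CTCF site. A longer consensus, that of the repressor REST with up to 3 mismatches, had no match in any peak of the clusters and flanks.

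**Figure D3:**
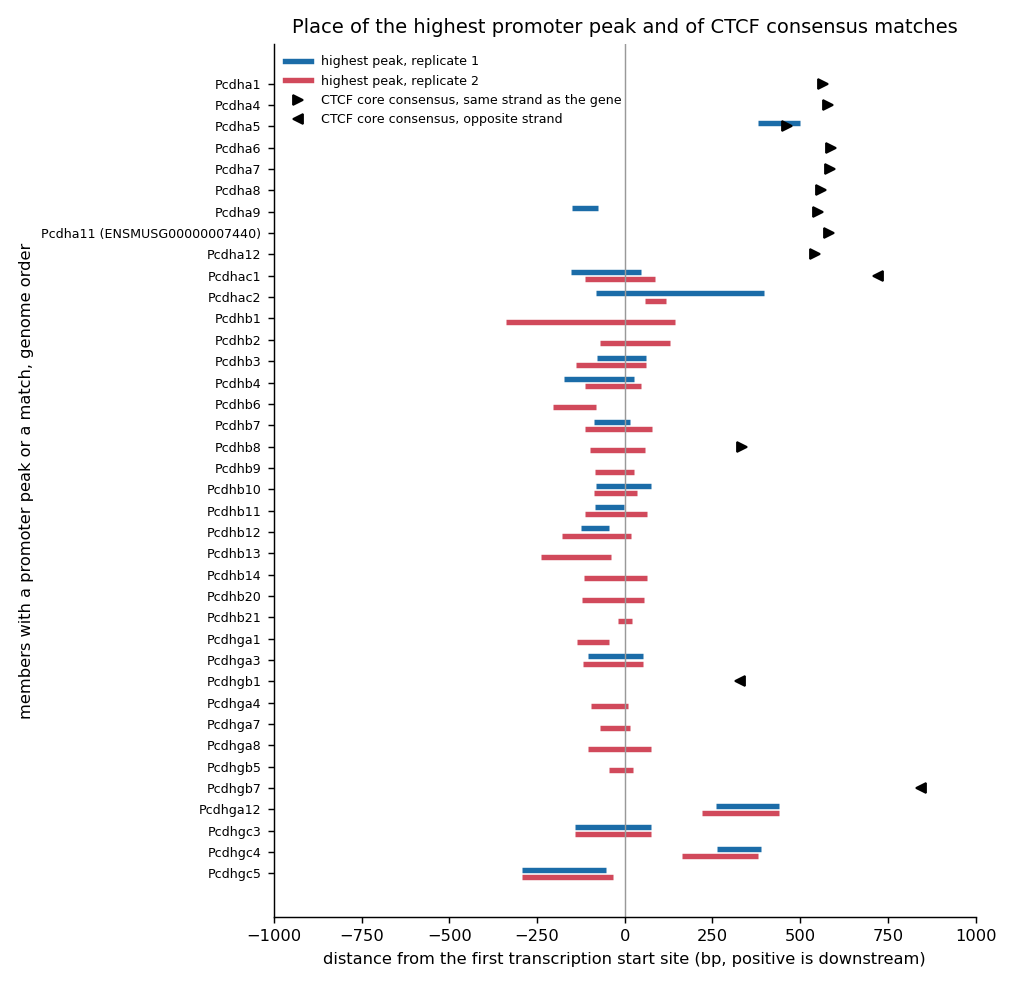
Position of the highest promoter peak (bars, 1 colour per library) and of CTCF core consensus matches (triangles, pointing right on the strand of the gene) relative to the first TSS in bp, for members with a peak or a match. The matches of the 9 alternate alpha members line up between 462 and 587 bp, away from the TSS near which the beta peaks lie.

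Across the clusters and 200 kb on either side the 2 libraries had 65 and 95 peaks, which merge into 98 regions, 59 of them shared. A further 5 were in replicate 1 alone and 34 in replicate 2 alone. The beta cluster was sparse, with 2.31 and 5.39 peaks per 100 kb against 3.30 and 6.44 over the genome. All peaks of the beta cluster lay at member promoters. The gamma cluster had 6.66 and 10.6 peaks per 100 kb and the flank after it 9.5 and 14.5. The peaks of Pcdhb1 and Pcdhga1 have midpoints just before the first base of their cluster, so they count with the stretch before it.

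Long stretches had no peak in either library. The longest, of 130.5 kb from the peak of Pcdhb21 to the Taf7 promoter, held 1 member TSS (chr18:37513644-37644140). A stretch of 92.1 kb between the peaks of Pcdha9 and Pcdhac1 held 4, among them the TSS of Pcdha9 itself (chr18:36997805-37089860). Those ending at the peak of Pcdha5 (65.5 kb) and at the peak of Pcdhb20 (56.4 kb) held 5 each. The TSS of Pcdha5 itself is among those of the 65.5 kb stretch, because its peak lies downstream of it.

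**Figure D4:**
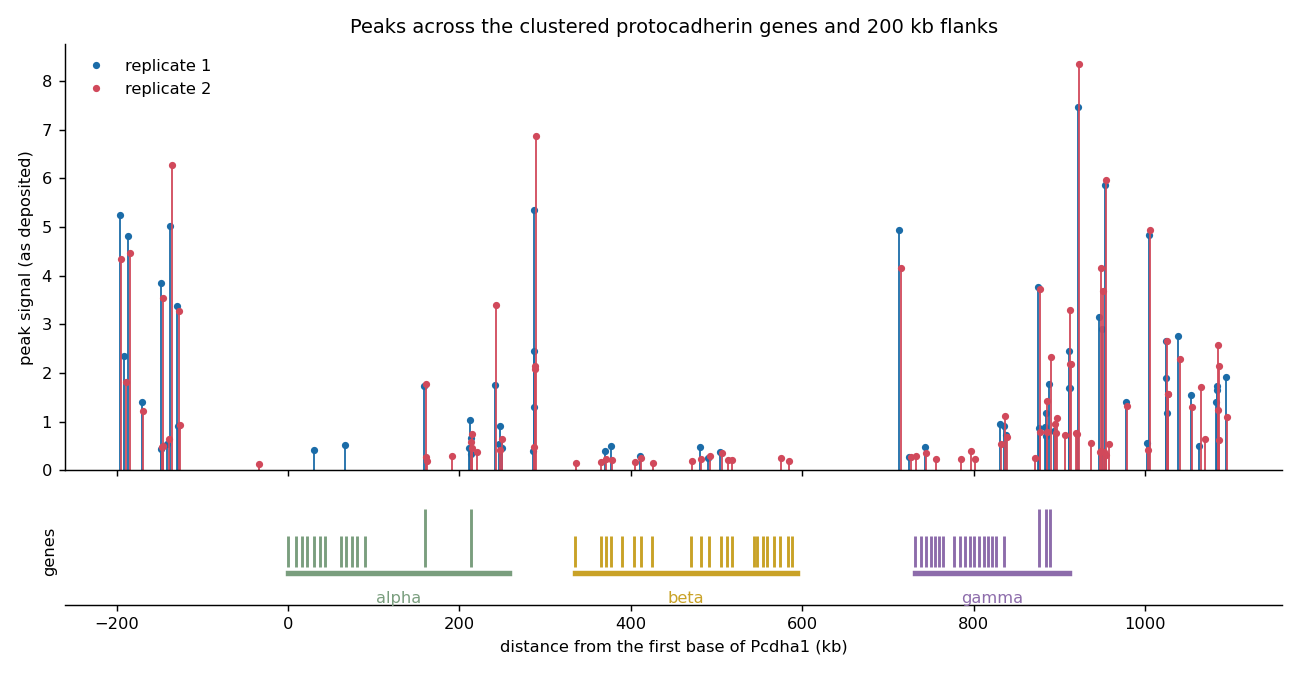
Peak signal of each merged region (upper panel, no stated unit, 1 colour per library, drawn side by side) by distance in kb from the first base of Pcdha1, with the members' TSSs below, taller ticks for C-type genes. In replicate 2 the tallest line lies after the gamma cluster (8.35) and the next between the alpha and beta clusters (6.86), and the lines over the beta cluster stay below 0.5.

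The strongest accessible DNA of the stretch lay outside the member promoters. Between the alpha and beta clusters a group of 4 shared peaks began 29.0 kb after the last alpha exon. The highest of them measured 5.35 in replicate 1 and 6.86 in replicate 2 (chr18:37218221-37218460, intergenic), which is percentile 97.7 and 99.2 of all shared peaks. Its neighbours measured 2.46 and 2.14 (chr18:37217361-37217600) and 1.29 and 2.09 (chr18:37217761-37218120). The highest peak and the first of these neighbours each held 1 CTCF consensus match, an exact one in the neighbour. Both matches were on the strand opposite to the members and lay in a footprint in both libraries. The enhancer HS5-1 is described downstream of the alpha cluster, but published enhancer coordinates were not used here, so the peaks are not named after it.

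Inside the alpha cluster the highest peak away from member promoters was at chr18:37172281-37172500, at 1.75 in replicate 1 and 3.40 in replicate 2. It lies between the second and the third constant exon, near the start of the antisense gene Gm38097. A region at the start of Gm10544, in the same intron (chr18:37178321-37178900), measured 0.909 and 0.637. The third in rank lay in the intron before Pcdhac2 at 0.462 and 0.572.

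The last constant exon of the gamma cluster held a peak of 1.69 in replicate 1 and 2.19 in replicate 2 (chr18:37841461-37841820). A peak at the start of Gm38182, after Pcdhgc5, measured 0.801 and 0.956. An additional pair of shared peaks lay within 1 kb after the cluster, at 2.46 and 3.30 (chr18:37842041-37842280) and at 1.70 and 2.20 (chr18:37842661-37842920). The highest peak of the whole stretch was in an intron of Diaph1, the gene of an actin-nucleating formin, 10.2 kb after the cluster, at 7.46 and 8.35 (chr18:37852121-37852400). It lies at percentile 99.4 and 99.7 of all shared peaks. A further Diaph1 intron peak, 41.7 kb after the cluster, measured 5.86 and 5.96 (chr18:37883561-37883780). The first held 2 CTCF consensus matches and the second 1 exact match. All 3 were on the strand opposite to the members and in a footprint in both libraries.

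Of the 59 shared peaks in the clusters and flanks 8 (13.6%) held a CTCF consensus match, compared with 17224 of all 78165 shared peaks. Of their 9 matches 88.9% lay in a footprint of replicate 1 and 100% in one of replicate 2, against 79.5% and 87.2% over all shared peaks. Footprints in the stretch numbered 203 and 305, of which 71.4% and 45.6% overlapped a footprint of the other library.

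Among peaks called in both libraries, beta had the lowest median ratio of the 3 clusters. At shared peaks the median log2 ratio of replicate 2 over replicate 1 was -0.55 in the beta cluster, -0.38 in the alpha cluster and -0.01 in the gamma cluster. Over all shared peaks of the genome it was -0.05, with an SD of 0.52 between peaks. Pcdhb4 had the lowest ratio of any member, at -1.17, and Pcdhgc5 the highest, at 0.40. The alpha, beta and gamma values cover 7, 6 and 11 shared peaks, and no test was possible with 1 library per animal and 1 group. Members called in 1 library alone have no ratio: 2 in alpha (replicate 1), and 9 in beta and 5 in gamma (replicate 2). The list of replicate 2 reaches lower signals, with a 1st percentile of 0.124 against 0.208, and the beta peaks are weak. The part of this selection in the beta ratio was not tested.

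Genes that work with the members were counted beside them. Of 18 regulators of promoter choice 18 had a promoter peak in both libraries, against 62.7% of all protein-coding genes. The share was 91.3% among other genes in the interquartile range of the alpha cluster for observed over expected CpG (0.668 to 0.714). Most of the regulators had a higher CpG ratio, so this share is not matched to them. Neither the regulators nor the partners below were set beside genes of their own CpG ratio. The regulators with the highest promoter signal were the cohesin subunit gene Smc3 (7.96 and 6.69), the cohesin subunit gene Stag1 (7.71 and 6.57) and the maintenance DNA methyltransferase gene Dnmt1 (5.49 and 4.67). Ctcf measured 2.73 and 2.56, and Smchd1, whose protein takes part in silencing the clusters, 3.23 and 2.19. Of 18 genes for partners of the proteins in signalling, all had a peak in both libraries, led by Pdcd10 (7.41 and 8.54), by Wasf1 (5.47 and 6.13), a subunit gene of the WAVE complex that binds protocadherin tails, and by Baiap2 (5.53 and 5.45).

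Relatives of the members outside the clusters were counted in the same way. Against the same 62.7% of all protein-coding genes, all 12 non-clustered protocadherins had a promoter peak in both libraries, led by Pcdh10 (6.40 and 4.77), Pcdh9 (4.99 and 5.31) and Pcdh17 (4.07 and 4.09). Of 19 classical cadherins 15 had one, led by Cdh24 (3.28 and 1.99), Cdh13 (2.12 and 1.69) and Cdh18 (1.53 and 1.32), and Cdh3, Cdh5 and Cdh19 had none in either. The median signal of those with a peak was 1.81 and 0.981 for non-clustered protocadherins and 0.975 and 0.926 for classical cadherins. All these medians lay below those of all accessible protein-coding promoters, 2.48 and 1.94. These lists were not matched for CpG ratio. Most genes flanking the clusters were accessible in both libraries as well. Before the alpha cluster the promoter signals were 5.25 and 4.35 at Tmco6, 4.82 and 4.47 at the start shared by Ndufa2 and Ik, 1.40 and 1.21 at Wdr55, 3.85 and 3.54 between Hars and Hars2, and 5.03 and 6.28 at Zmat2. Taf7, between beta and gamma, measured 4.93 and 4.16, and the only other shared peak of that stretch, at 3222401L13Rik, 0.277 and 0.264. After gamma they were 4.83 and 4.94 at Diaph1, 2.67 and 2.65 between Hdac3 and Rell2, 2.76 and 2.28 at Fchsd1, and a mean of 1.43 with an SD of 0.173 over n = 2 at Arap3. Dnd1 and Slc25a2 were the neighbours without a peak, besides 3 read-through models that span the clusters.

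The tissue label was set against marker genes. All 5 markers of neurons and all 6 of cortical glutamatergic neurons had a promoter peak in both libraries, as did 2 of 4 for interneurons, 4 of 5 for astrocytes, 4 of 6 for the oligodendrocyte lineage and 2 of 5 for microglia. Of 4 endothelial markers none did, although Cldn5 and Flt1 had one in replicate 2. Over all protein-coding genes the share was 62.7%, so the counts for interneurons, the oligodendrocyte lineage and microglia are near or below it and say little about the presence of these cells. The part of cell mixture in the weak promoter peaks of the members was not tested.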

How the data were processed

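The authors made peaks, footprints and cleavage-rate segments from the mm10 alignments of each library alone, per the notes deposited with the files, and pooled none. What aligner and callers they ran is not given in the sources used here. Deposited peak signal has no stated unit, the deposited footprint p-value is the constant 0.01, and the segments carry a deposited q-value of at most 0.05. The CAST/EiJ allele was aligned to the reference of another strain, and its effect was not tested.

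The larger peak list of each library was the main one. Genes came from GENCODE M21 on GRCm38.p6, with coordinates printed 1-based on mm10. A gene took the highest peak signal within 1 kb of any TSS. Peaks of both libraries that overlapped by 1 bp or more were merged. Regions were assigned by midpoint, without the 3 read-through models. The interval and motif functions were tested on simulated data. Alternatives were the stricter list, equal numbers of peaks, other windows, overlaps and flanks, other mismatch limits, and each library alone. Named genes were the C-type members, the 3 highest other members and first 3 without a peak per cluster, the 3 highest other peaks per stretch, the 3 highest genes and those without a peak per list, the extreme library ratios and the neighbours. The members and lists were chosen with earlier results of these data known. The search for CTCF matches by strand and offset was added after the data were seen. Python 3.11.15, NumPy 2.4.6, pandas 2.3.3 and Numba 0.67.0 were used.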

Additional observations from a re-analysis of the deposited data

How the results depend on the processing

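The counts of members with a promoter peak in both libraries held for windows of 500 and 250 bp, for the first TSS alone and for peak midpoints. With the stricter peak lists they were 2 in beta and 8 in all, and with the same number of top peaks per library 0 in beta and 6 in all. The shares of all protein-coding genes under these settings are not given here, so these falls cannot be read as particular to the members. With a library left out, the count ran from 2 to 4 in alpha, 6 to 15 in beta, 5 to 10 in gamma and 15 to 27 in all. Shared peaks of the alpha cluster were 4 when both peaks had to overlap by 50%, and 12 with either library alone; with the stricter lists they were 2 in beta and 5 in gamma. With a library left out they ran from 6 to 14 in beta, 12 to 19 in gamma and 65 to 95 over clusters and flanks, and a flank of 100 kb left 39. Footprints at beta promoters ran from 6 to 14. Promoters with a CTCF consensus match were 0 in each cluster with an exact match within 500 bp. With at most 1 mismatch within 1 kb they were 10 in alpha and 2 in gamma. Of these matches within 1 kb, those of Pcdha1, Pcdha4, Pcdha6, Pcdha7, Pcdha8 and Pcdha12 were exact. The cause of these shifts was not tested, apart from those whose direction was fixed by construction. Fewer peaks, a shorter flank or an exact match can only lower such counts, and a wider window can only raise them. With a library left out, members and peaks no longer need a peak in both libraries, so their counts can only stay or rise. Orders changed: with the same number of top peaks per library beta went from the most accessible members of any cluster to the fewest, 0 against 4 in gamma and 2 in alpha. The alpha share with a CTCF match was below that of all promoters within 500 bp (1 of 14 against 11.9%) and above it within 1 kb (10 of 14 against 20.6%). No paired analysis was possible because both libraries belong to 1 group. With 2 libraries of unknown depth, an absent weak peak is not evidence of closed DNA.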
